A study of Mus musculus with 2 samples.

Results

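The genes described here are the 6 core genes of the Hedgehog (HH) pathway that were followed through the skin of a control mouse and a miR-205-inducible mouse: the receptor Ptch1, the signal transducer Smo, the transcription factors Gli1, Gli2 and Gli3, and the secreted antagonist Hhip. They were found by symbol in the feature table, which lists 31053 features, and all 6 were present once. Single-cell RNA-seq (10x Genomics 3′ counting) was done on 1 library of back skin cells per mouse at postnatal day 53. Both mice carried a Krt14-H2b-GFP allele, which puts a green nuclear reporter under the keratin 14 promoter, and they were matched for gender. The miR205_induced mouse carried a pTRE2-miR-205 transgene together with Krt14-rtTA, so that doxycycline switches the microRNA on in cells with keratin 14 promoter activity, that is, in epithelial cells of the skin. Feeding of doxycycline chow began at postnatal day 49 and lasted 4 days. The extraction protocol gives this feeding for both mice, while the sample characteristics list the control as untreated. The strain label is C57BL/6, and per the methods the transgene was made by injection into FVB mice. The sources used here do not say which transgene the control lacked. Sorted cells were mixed as epidermal, hair follicle and dermal in a 3:5:2 ratio, so the share of each cell class reflects the sort and not the tissue.

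In the HH pathway, a secreted ligand binds Ptch1 and lifts its block on Smo, which then signals through the primary cilium to the Gli transcription factors. Gli1 and Ptch1 are themselves targets of the pathway, so their mRNA is widely used as a readout of signalling, whereas Gli2 acts mainly as an activator and Gli3 mainly as a repressor. In the hair follicle, Sonic hedgehog (Shh) is needed for the growth of the follicle at the start of anagen, and the hair germ (HG), the progenitor cluster between the stem cells of the bulge and the dermal papilla, is a known site of the response.

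The study asked how raised miR-205 acts on hair follicle stem cells and HG progenitors. The sequence below is shown because it is the induced molecule, with its seed (bases 2 to 8, counted from the 5′ end) in capitals. It lies on chr1:193507503-193507524, minus strand, in GRCm38.p6 (RefSeq).
mmu-miR-205-5p: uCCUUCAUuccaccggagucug
The 7-base complement of the seed, ATGAAGG, was not found in the longest annotated 3′ UTR of any of the 6 genes on build NCBIM37. Those UTRs ran from 158 bases for Gli1 to 3245 bases for Gli3, and 10.3% of 20007 genes with a 3′ UTR held the match. No match says only that these letters are not in these annotated UTRs.

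The genes lie apart in the genome (GRCm38.p6): Gli1 (ENSMUSG00000025407) at chr10:127329882-127341579, Gli2 (ENSMUSG00000048402) at chr1:118834061-119054405, Gli3 (ENSMUSG00000021318) at chr13:15463723-15730026, Ptch1 (ENSMUSG00000021466) at chr13:63508328-63573460, Smo (ENSMUSG00000001761) at chr6:29735497-29761366 and Hhip (ENSMUSG00000064325) at chr8:79965850-80058060.

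The control library held 4545 barcodes and 55465594 unique molecular identifiers (UMIs, 1 per captured mRNA molecule), and the miR205_induced library held 4264 barcodes and 49733560 UMIs. The cell filter of the study kept 3936 and 3628 cells, with a median of 12198.5 and 11752.5 UMIs, and 11 barcodes occurred in both libraries. Cells were classed by UMIs of marker genes, none of which is an HH gene. HG-like cells had Lgr5, where a single Lgr5 UMI also needed Cdh3, and no Krt24, bulge-like cells had Cd34 and Krt24, upper bulge-like cells had Aspn and Pthlh, dermal papilla-like cells had Corin, Rspo3, Notum, Alx4 or Ndp with few keratin UMIs, and epidermal basal-like cells had Krt14 and Krt5 without follicle or suprabasal markers. In all, 63.7% of control and 60.5% of induced cells fell into 1 of 14 classes.

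There were 105 HG-like cells in the control and 121 in the induced library, 214 and 268 bulge-like, 84 and 115 upper bulge-like, 964 and 437 epidermal basal-like, 198 and 174 epidermal suprabasal-like, 95 and 141 dermal papilla-like, and 117 and 152 dermal fibroblast-like cells. The classes were checked on markers the gates did not use, counting a marker as raised where a larger share of cells in the class than outside it had a UMI. All 5 HG markers were raised in the control and 4 of 5 in the induced library, where Tgfb2 was not. This check was against all other cells, so it does not by itself separate HG-like from bulge-like cells. Sox9, 1 of the 5, had 295 and 284 CPM in HG-like cells against 930 and 894 CPM in bulge-like cells. All 7 bulge markers, all 4 upper bulge markers and 10 of 11 dermal papilla markers were raised in both libraries. All 7 epidermal basal markers were raised as well. Of these basal-like cells, 630 of 964 in the control and 317 of 437 in the induced library had at most 1 UMI of Sox9, a factor of the hair follicle, and the others had more. Cells gated on Krt75 and Krt6a, meant as inner bulge, had only 2 of 4 markers raised in the control and 1 of 4 in the induced library, so they are called Krt75/Krt6a cells.

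All levels below are UMIs of a gene scaled to all UMIs of the class (CPM), with exact 95% Poisson intervals that cover counting error only. With 1 library per group there is no replicate and no test of the treatment, and the difference between libraries cannot be told apart from a difference between these 2 mice. Levels are compared between classes or libraries for 1 gene at a time and not between genes.

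**Figure D1:**
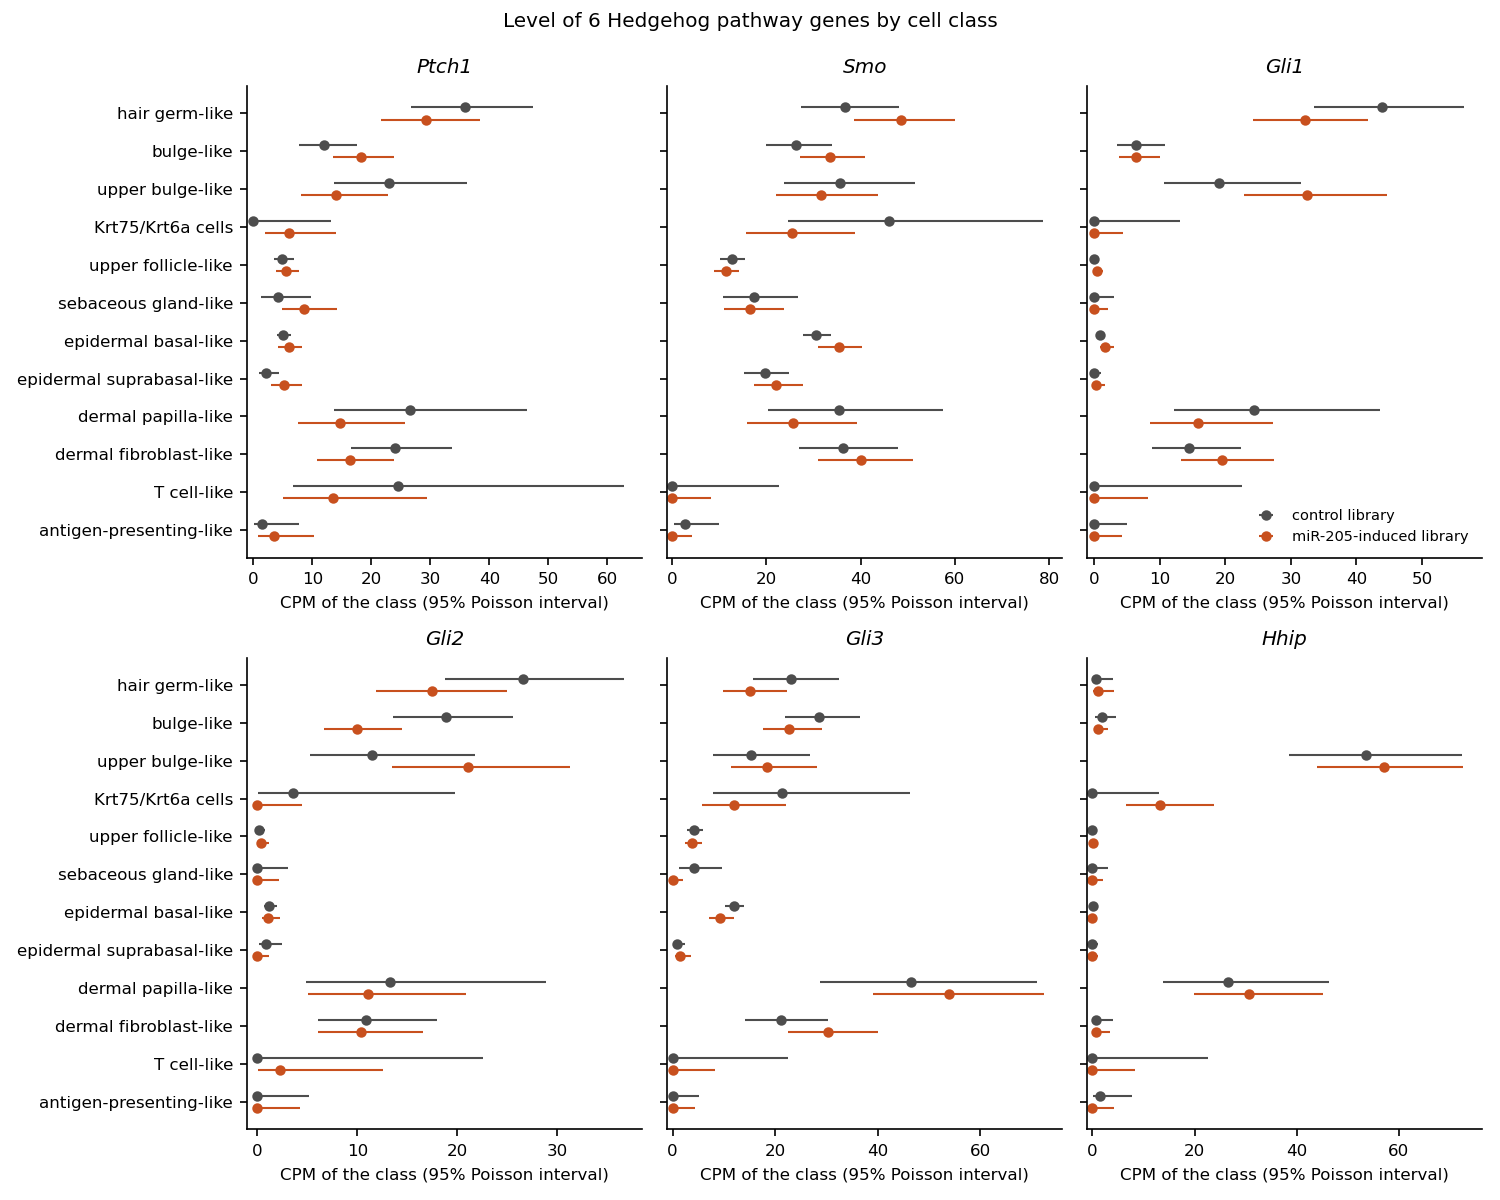
CPM of each HH gene (x axis, with 95% counting intervals) in 12 cell classes (y axis), for the control and the miR-205-induced library. Gli1 is highest in HG-like cells of the control library and in HG-like and upper bulge-like cells of the induced library, Gli3 in dermal papilla-like cells and Hhip in upper bulge-like and dermal papilla-like cells, while Smo is spread over all epithelial and dermal classes.

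Gli1, the transcription factor that is itself switched on by the pathway, was concentrated in HG-like cells. They held 61 Gli1 UMIs in the control library, or 43.8 CPM (33.5 to 56.3), and 55 UMIs in the induced library, or 32.1 CPM (24.2 to 41.8). A Gli1 UMI was found in 40 of 105 control HG-like cells (38.1%) and in 41 of 121 induced HG-like cells (33.9%). Of the control cells, 29 held exactly 1 Gli1 UMI, 6 held 2, 1 held 3 and 4 held 4 or more. Of the induced cells, 27 held 1 and 14 held 2, with no cell above that. Part of the control UMIs thus lay in few cells.

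Bulge-like cells had much less Gli1, with 14 UMIs or 6.43 CPM (3.52 to 10.8) in the control and 18 UMIs or 6.41 CPM (3.80 to 10.1) in the induced library. The log2 ratio of HG-like over bulge-like cells was 2.73 (1.91 to 3.72) in the control and 2.30 (1.53 to 3.18) in the induced library, so both libraries gave the same order beyond counting error. Under a limit of 5% mitochondrial UMIs, which left 38 control HG-like cells, the control value fell to 1.60, with an interval that included 0. Epidermal basal-like cells were lower again, with 13 UMIs in 8 of 964 control cells, or 0.970 CPM, and 11 UMIs in 6 of 437 induced cells, or 1.72 CPM, of which 1 cell held 5.

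Upper bulge-like cells also carried Gli1. Their level was 19.1 CPM (10.7 to 31.5) from 15 UMIs in the control and 32.4 CPM (22.8 to 44.7) from 37 UMIs in the induced library. In the control, HG-like cells exceeded them by a log2 ratio of 1.16 (0.36 to 2.12), while in the induced library the ratio was −0.02 (−0.64 to 0.63). The difference between those 2 ratios was not tested. Over bulge-like cells, upper bulge-like cells were higher by 1.57 (0.42 to 2.73) and 2.32 (1.49 to 3.24).

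Dermal classes held Gli1 as well. Dermal papilla-like cells had 11 UMIs or 24.4 CPM (12.2 to 43.6) in the control and 13 UMIs or 15.9 CPM (8.47 to 27.2) in the induced library, and dermal fibroblast-like cells had 14.5 CPM (8.88 to 22.5) and 19.5 CPM (13.3 to 27.5). The control order ran HG, dermal papilla, upper bulge and fibroblast without a step beyond counting error between neighbours, followed by a step down to the bulge and another to the basal epidermis. In the induced library upper bulge and HG came first and did not differ, and the steps from HG to fibroblast, from dermal papilla to bulge and from bulge to basal epidermis exceeded counting error. No Gli1 UMI was found in sebaceous gland-like or Krt75/Krt6a cells of either library. Suprabasal-like cells held 0 and 1, and upper follicle-like cells 0 and 3.

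Immune cells (T cell-like and antigen-presenting-like) served as the background for shares of cells, though they cannot be taken to lack these genes. They had no Gli1 UMI in 109 control and 159 induced cells, which allows a share of up to 2.75% and 1.89% (3 counts of the total), or 3.90% and 2.61% of the 77 and 115 immune cells that reached 5000 UMIs. After thinning every cell to 5000 UMIs, so that depth was equal, the share of cells with a Gli1 UMI was 22.1% and 12.4% in HG-like, 3.40% and 3.82% in bulge-like, 7.50% and 16.4% in upper bulge-like and 0.525% and 0.703% in epidermal basal-like cells. Before thinning, 40 control HG-like cells had a Gli1 UMI and 65 had none, against 41 and 80 in the induced library. The gap between the libraries in that share was thus smaller before thinning than after it. Median depth before thinning was 12027 and 12766 UMIs in HG-like cells and 7129 and 6851 in immune cells. HG-like and upper bulge-like shares lay above the thinned immune limit in both libraries. The bulge-like share lay above it in the induced but not in the control library, and the basal-like shares lay below it in both, so these are not told apart from background.

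Ptch1, the ligand receptor and the other common readout, followed Gli1 in part. HG-like cells had 50 UMIs in each library, which is 35.9 CPM (26.7 to 47.4) in the control and 29.2 CPM (21.7 to 38.5) in the induced library. Bulge-like cells had 26 UMIs or 11.9 CPM (7.80 to 17.5) and 51 UMIs or 18.2 CPM (13.5 to 23.9). The HG-like over bulge-like log2 ratio was therefore 1.58 (0.88 to 2.33) in the control and 0.68 (0.09 to 1.28) in the induced library. The induced value turned to −0.25 under the limit of 5% mitochondrial UMIs, which left 32 HG-like cells there.

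Outside these compartments Ptch1 was broad. Upper bulge-like cells had 22.9 CPM (13.6 to 36.3) and 14.0 CPM (8.02 to 22.8), dermal papilla-like cells 26.6 CPM (13.7 to 46.4) and 14.7 CPM (7.59 to 25.7), and fibroblast-like cells 23.99 CPM (16.5 to 33.7) and 16.4 CPM (10.8 to 23.9). Epidermal basal-like cells had 5.07 CPM and 5.96 CPM. Immune cells were not free of Ptch1: 5 of 109 control cells (4.59%) and 8 of 159 induced cells (5.03%) had a UMI. After thinning, the immune share was 1.30% and 6.09%, against 2.10% and 3.28% in basal-like, 5.83% and 9.16% in bulge-like and 10.6% and 11.6% in HG-like cells. The immune Ptch1 UMIs lay mainly in T cell-like cells, with 4 UMIs or 24.5 CPM (6.68 to 62.7) and 6 UMIs or 13.5 CPM (4.96 to 29.4), against 1 and 3 UMIs in antigen-presenting-like cells. The pool is therefore not a clean background for Ptch1. As a point share, the basal-like value lay above it in the control and below it in the induced library, while HG-like and bulge-like values lay above it in both. The thinned immune shares rest on 1 of 77 and 7 of 115 cells. These point shares therefore do not settle whether Ptch1 in those classes exceeded the pool, which was not tested.

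Smo, the transducer that Ptch1 holds in check, was spread over the epithelium. HG-like cells had 51 UMIs or 36.6 CPM (27.3 to 48.2) in the control and 83 UMIs or 48.4 CPM (38.6 to 60.1) in the induced library. Bulge-like cells had 26.2 CPM (19.8 to 33.9) and 33.5 CPM (27.1 to 41.0), and epidermal basal-like cells had 30.6 CPM (27.7 to 33.7) from 410 UMIs and 35.4 CPM (31.0 to 40.4) from 226 UMIs. HG-like over basal-like was 0.27 (−0.19 to 0.68) and 0.46 (0.07 to 0.82), the smallest HG over epidermis ratio among the 5 genes with enough UMIs in both classes. Basal-like cells exceeded suprabasal-like cells by 0.63 (0.27 to 1.03) and 0.68 (0.30 to 1.08). Immune cells held 2 Smo UMIs in the control and 0 in the induced library, and 14.3% and 15.5% of thinned basal-like cells had one.

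Gli2, the main activator, was found in the follicle and the dermis. HG-like cells had 37 UMIs or 26.6 CPM (18.7 to 36.6) and 30 UMIs or 17.5 CPM (11.8 to 25.0). Bulge-like cells had 18.8 CPM (13.5 to 25.6) and 9.97 CPM (6.63 to 14.4), and upper bulge-like cells 11.5 CPM (5.25 to 21.8) and 21.0 CPM (13.5 to 31.3). The HG-like over bulge-like ratio was 0.50 (−0.18 to 1.17) in the control and 0.81 (0.02 to 1.61) in the induced library, so only the induced one exceeded counting error. Dermal papilla-like cells had 13.3 CPM and 11.02 CPM from 6 and 9 UMIs, and fibroblast-like cells 10.9 CPM and 10.3 CPM. Against the epidermis the gap was wide, with 16 and 7 UMIs in all basal-like cells, or 1.19 and 1.10 CPM. HG-like over basal-like was 4.45 (3.60 to 5.42) and 3.92 (2.78 to 5.43).

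Gli3, the main repressor, had another order. It was highest in dermal papilla-like cells, with 21 UMIs or 46.5 CPM (28.8 to 71.1) in the control and 44 UMIs or 53.9 CPM (39.1 to 72.3) in the induced library. Dermal papilla-like over fibroblast-like was 1.15 (0.26 to 2.00) and 0.83 (0.21 to 1.44). Within the epithelium, bulge-like cells had 28.5 CPM (21.8 to 36.5) and 22.8 CPM (17.6 to 29.1) and HG-like cells 23.0 CPM (15.7 to 32.5) and 15.2 CPM (9.91 to 22.2). The HG-like over bulge-like ratio was −0.30 (−0.97 to 0.33) and −0.57 (−1.30 to 0.09), which did not exceed counting error in either library.

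Gli3 was also detected in the basal epidermis and little above it. Basal-like cells held 160 UMIs or 11.9 CPM (10.2 to 13.9) in 140 control cells and 59 UMIs or 9.25 CPM (7.04 to 11.9) in the induced library. Suprabasal-like cells held 3 and 5 UMIs. Basal-like over suprabasal-like was 3.63 (2.27 to 6.14) and 2.49 (1.31 to 4.29). In the induced library HG-like over basal-like was 0.73, and 1.57 when only basal-like cells with at most 1 Sox9 UMI were used. Part of the induced basal-like Gli3 thus lay in cells with more Sox9. The sum over immune cells was 0 Gli3 UMIs in both libraries.

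Hhip, which binds HH ligand at the cell surface and limits its spread, was detected in few classes. Upper bulge-like cells held 42 UMIs in 21 of 84 control cells (25%), or 53.5 CPM (38.6 to 72.4), and 65 UMIs in 31 of 115 induced cells (27.0%), or 57.0 CPM (44.0 to 72.6). Dermal papilla-like cells held 12 UMIs or 26.6 CPM (13.7 to 46.4) and 25 UMIs or 30.6 CPM (19.8 to 45.2). By contrast, HG-like cells held only 1 and 2 UMIs, bulge-like cells 4 and 3, fibroblast-like cells 1 and 1, and basal-like cells 1 and 0.

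Hhip was thus nearly absent from HG-like cells, where Gli1 was high, while upper bulge-like and dermal papilla-like cells carried both genes. For Hhip, upper bulge-like over bulge-like was 4.71 (3.40 to 6.81) and 5.53 (4.13 to 8.05), and dermal papilla-like over fibroblast-like was 4.67 (2.44 to 10.6) and 5.10 (3.04 to 11.01), the latter against 1 fibroblast UMI in each library. Hhip stood 3rd in the control and 6th in the induced library among upper bulge-like genes ranked by fold over the other cells. After thinning, 20% and 18.2% of upper bulge-like cells had a Hhip UMI, against 1.30% and 0 of immune cells. Krt75/Krt6a cells held 0 Hhip UMIs in 29 control cells and 11 UMIs in 7 of 81 induced cells.

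Set against all genes, the HG-like over bulge-like comparison put 2 of 6 HH genes higher beyond counting error in the control (Gli1 and Ptch1) and 4 of 6 in the induced library (Gli1, Gli2, Ptch1 and Smo), where 19.2% and 18.1% of all genes tested were higher. HG-like over epidermal basal-like put 4 of 6 higher in each library, namely Gli1, Gli2 and Ptch1 with Gli3 in the control and with Smo in the induced library, where 21.5% and 26.1% of all genes were. Dermal papilla-like over fibroblast-like put 2 of 6 higher in each library (Gli3 and Hhip), a share close to the 26.8% and 26.5% of all genes. Hhip is counted among the 6 in these comparisons although, with 1 exception, it fell short of 20 UMIs over the classes compared. The exception was the induced dermal papilla and fibroblast comparison. In the control that comparison rested on 12 and 1 Hhip UMIs, so by that minimum only Gli3 was higher there. Contrasts with the upper bulge and between epidermal layers were added after the levels had been seen. For those, 17.5% and 15.8% of all genes were higher in upper bulge-like over bulge-like cells, 15.8% and 17.8% in HG-like over upper bulge-like cells, and 23.3% and 22.9% in basal-like over suprabasal-like cells.

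**Figure D2:**
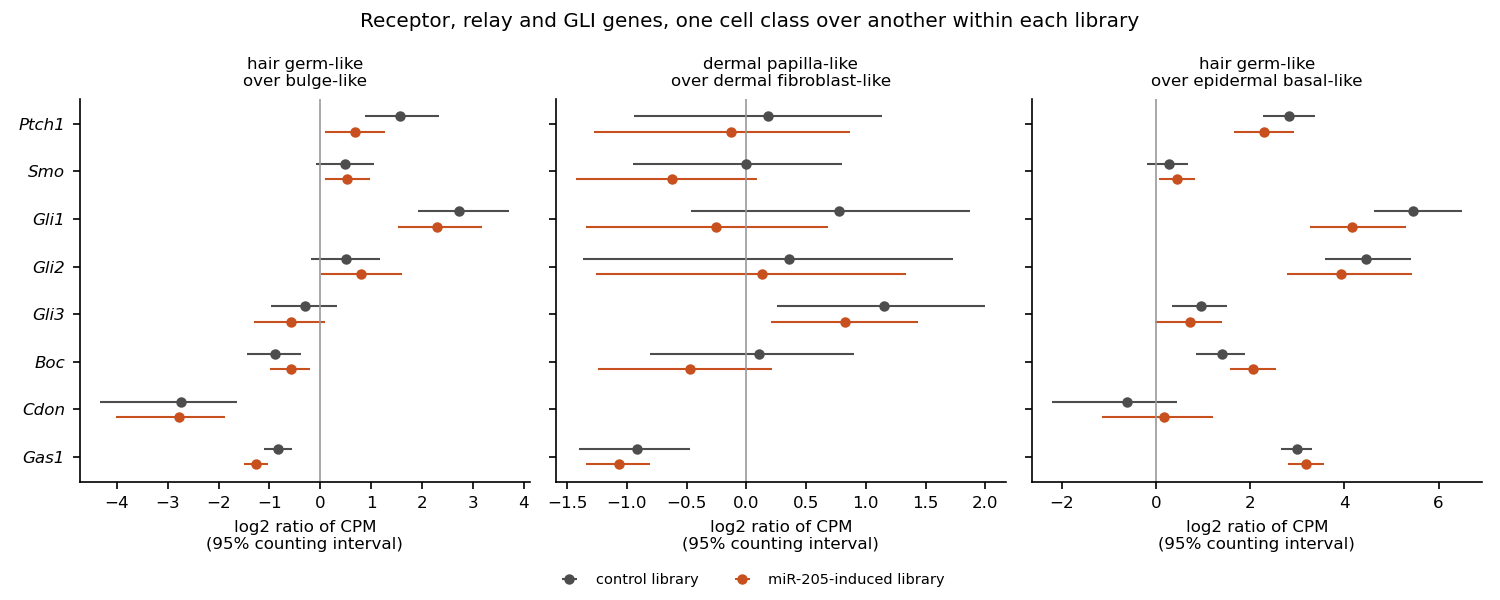
Log2 ratio of CPM between classes within each library (x axis, with 95% counting intervals) for receptor, relay and GLI genes (y axis). Gli1 and Ptch1 lie right of 0 in HG over bulge while the coreceptors Boc, Cdon and Gas1 lie left of 0. Cdon in the dermal papilla, where it was at 0 UMIs, and Hhip are not drawn.

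The coreceptors, which help Ptch1 to bind ligand, ran the other way between HG and bulge. Cdon had 6 UMIs in control and 9 in induced HG-like cells, against 67 and 106 in bulge-like cells, a log2 ratio of −2.73 (−4.33 to −1.64) and −2.77 (−4.01 to −1.87). Gas1 was lower in HG-like cells by −0.83 (−1.11 to −0.55) and −1.26 (−1.49 to −1.03), and Boc by −0.88 (−1.43 to −0.38) and −0.58 (−0.99 to −0.20). All 3 coreceptors were therefore lower beyond counting error in HG-like than in bulge-like cells in both libraries, as were 14.2% and 17.3% of all genes tested.

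In the dermal papilla, Cdon was at 0 UMIs in both libraries, against 52 and 66 in fibroblast-like cells, which puts fibroblast-like cells at least 5.69-fold and 10.9-fold higher when 3 counts are set as the floor. Gas1 was lower in dermal papilla-like than fibroblast-like cells by −0.91 (−1.40 to −0.47) and −1.07 (−1.35 to −0.81), in a comparison where 19.8% and 22.5% of all genes were lower.

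HH ligand mRNA was scarce. Shh had 16 UMIs in 7 control cells, of which 3 UMIs were in HG-like cells and 5 in 1 sebaceous gland-like cell, and 1 UMI in the whole induced library. Ihh had 2 and 0 UMIs. Dhh had 9 and 34 UMIs in all kept cells, a log2 ratio of 2.02 (0.98 to 3.32). Scube1, a secreted protein of the family that helps release ligand, had 39 UMIs or 86.3 CPM (61.4 to 118) and 51 UMIs or 62.4 CPM (46.5 to 82.1) in dermal papilla-like cells and 0 in HG-like, bulge-like and fibroblast-like cells of both libraries.

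Within the classes, the 6 genes showed few differences between the libraries beyond counting error. The ratio was computed where a gene had at least 20 UMIs over both libraries. In HG-like cells 5 genes were eligible (Hhip had 3 UMIs) and none reached a log2 ratio of 1 in size, a limit passed by 10.8% of all genes tested there. Gli1 had a log2 ratio of induced over control of −0.45 (−1.002 to 0.10), Gli2 of −0.60 (−1.35 to 0.13), Gli3 of −0.59 (−1.40 to 0.19), Ptch1 of −0.30 (−0.90 to 0.30) and Smo of 0.40 (−0.12 to 0.94). All 5 intervals included 0, while 26.8% of all genes had an interval that did not. No difference beyond counting error was thus seen for these 5 genes, which does not show that there was none. The HG-like cells of the induced library held more Mki67, a proliferation marker, with 92 UMIs in 15.7% of cells against 47 UMIs in 7.62%. When cells with more than 1 Mki67 or Top2a UMI were left out, 99 control and 105 induced cells remained, and all 5 ratios kept their sign with intervals that included 0. Under 5% mitochondrial UMIs the Gli1 ratio turned to 1.11, with an interval that included 0, and the Ptch1 ratio moved to −1.37, with one that did not, on 38 and 32 cells.

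In bulge-like cells none of 5 eligible genes passed the fold, which 5.77% of all genes did. Gli2 went from 41 to 28 UMIs, a log2 ratio of −0.91 (−1.67 to −0.19), the only one of the HH genes in any single class with an interval that left out 0. Of all genes tested in the bulge, 8.56% were lower in that sense and 21.5% differed either way. In the other classes with HH genes described here, that share was 12.8% in the upper bulge, 26.5% in basal-like, 21.0% in suprabasal-like, 16.1% in dermal papilla-like and 17.5% in fibroblast-like cells. Ptch1 had 0.59 (−0.10 to 1.35), Smo 0.35, Gli3 −0.32 and Gli1 −0.02. Neither readout, Gli1 nor Ptch1, differed beyond counting error in bulge-like cells.

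Upper bulge-like cells had 6 eligible genes and none past the fold, against 5.35% of all genes. Gli1 stood at 0.73 (−0.14 to 1.73), Gli2 at 0.83 (−0.28 to 2.16), Ptch1 at −0.70 and Hhip at 0.08 (−0.49 to 0.69). Dermal papilla-like cells also had none of 5 past the fold, against 7.41% of all genes, with Ptch1 at −0.85, Gli1 at −0.62, Smo at −0.47, Gli3 at 0.19 and Hhip at 0.17 (−0.84 to 1.33). Dermal papilla-like cells were shallow, with a median of 4732 and 5863 UMIs. In fibroblast-like cells none of 5 passed, against 6.04% of all genes, with Ptch1 at −0.54, Gli3 at 0.52, Gli1 at 0.41, Smo at 0.14 and Gli2 at −0.08.

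In the epidermis, none of 5 eligible genes passed the fold in basal-like cells, where 4.26% of all genes did. Smo was at 0.21 (−0.03 to 0.45) and Gli3 at −0.36 (−0.82 to 0.07). In suprabasal-like cells 1 of 2 eligible genes passed, against 4.78% of all genes. This was Ptch1, with 8 UMIs in the control and 17 in the induced library, 2.21 and 5.14 CPM, a log2 ratio of 1.17 (−0.07 to 2.64) that included 0.

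**Figure D3:**
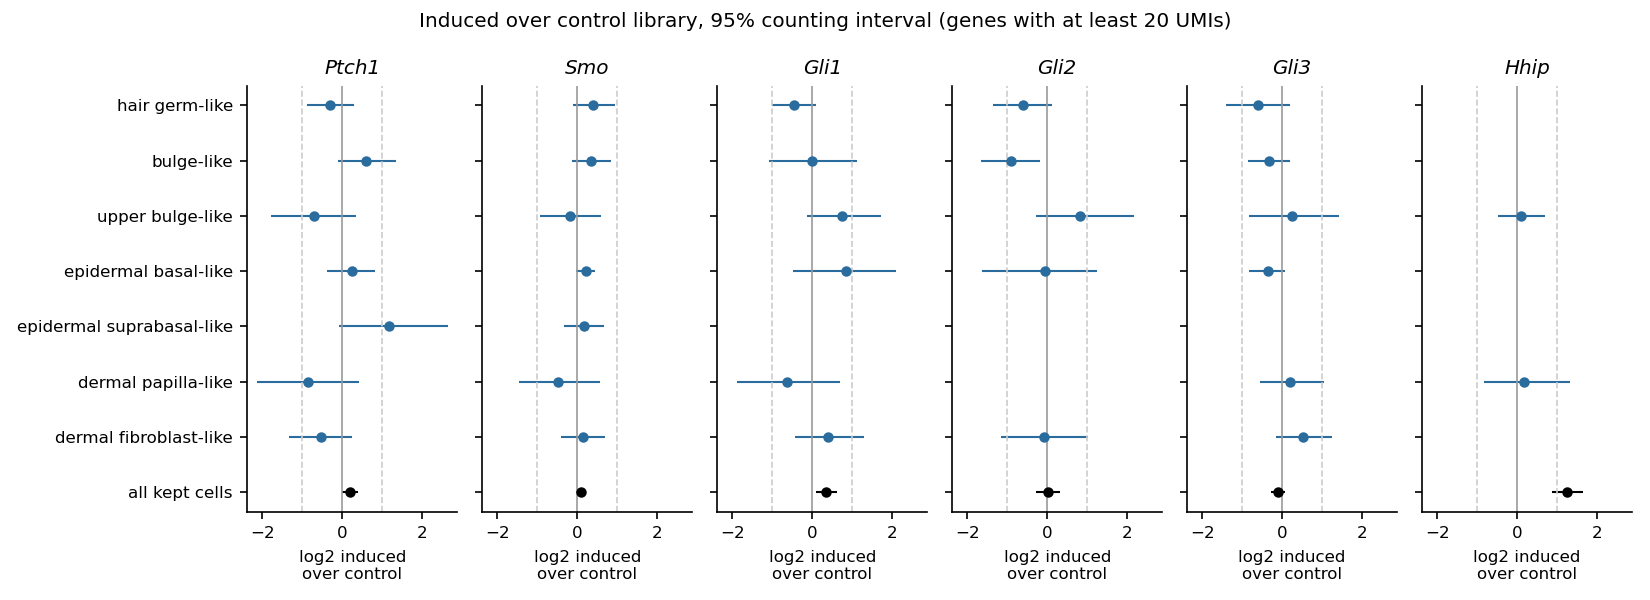
Log2 ratio of CPM, induced over control library (x axis, with 95% counting intervals), for each HH gene in the classes where it had at least 20 UMIs and, in black, over all kept cells. Nearly all class values lie within the dashed lines at −1 and 1, and the value of Hhip over all cells lies beyond 1.

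Over all kept cells, 1 of 6 HH genes passed the fold, against 7.48% of all genes and 6.39% in the higher direction. Hhip had 83 UMIs in 46 control cells, or 1.64 CPM, and 178 UMIs in 116 induced cells, or 3.92 CPM, a log2 ratio of 1.25 (0.87 to 1.65). Gli1 stood at 0.35 (0.08 to 0.61), and like Hhip it was higher beyond counting error, as were 34.7% of all genes. Ptch1 was at 0.18 (−0.02 to 0.39). The other genes lay between −0.11 and 0.09, and the median of all genes was 0.10.

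Within the classes that held most Hhip, the ratio was 0.08 in the upper bulge and 0.17 in the dermal papilla, and neither interval left out 0. The upper bulge made up 1.55% of control and 2.51% of induced UMIs. When the induced class levels were weighted by the control class mix, Hhip came to 2.78 CPM and a log2 ratio of 0.76, Gli1 to 0.07, Ptch1 to 0.04 and Gli2 to −0.28. The remainder for Hhip lay largely in cells that met no gate or more than 1, which held 25.3% of its UMIs in the control and 39.3% in the induced library.

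**Figure D4:**
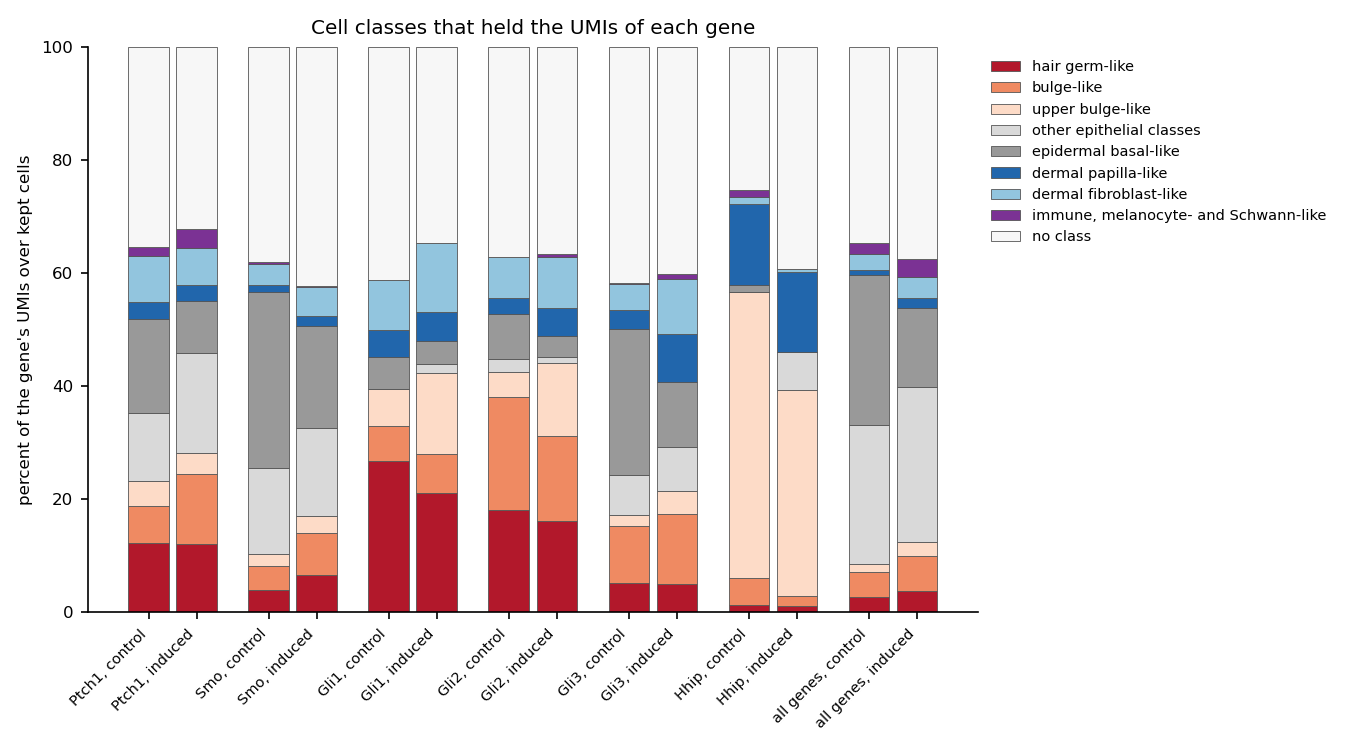
Percent of each gene's UMIs (y axis) that lay in each cell class, for both libraries (x axis), with the same split for all genes at the right. Gli1 and Gli2 drew a larger part from HG-like cells than all genes did, Smo drew more of its UMIs from basal-like than from HG-like cells, and most classed Hhip UMIs lay in the upper bulge and dermal papilla.

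The sources of the UMIs show how small the compartments were. HG-like cells held 2.75% of all control UMIs and 3.78% of all induced UMIs, but 26.8% and 21.2% of Gli1 UMIs. Upper bulge-like cells held 50.6% and 36.5% of Hhip UMIs. Cells outside the classes held 41.2% and 34.6% of Gli1 UMIs, close to the 34.7% and 37.4% of all UMIs they contributed.

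To see whether receptor and transcription factor were met in the same cells, thinned HG-like cells were split by a Gli1 UMI. Ptch1 was detected in 3 of 23 control cells with Gli1 (13.0%) and 8 of 81 without (9.88%), and in 2 of 15 induced cells with Gli1 (13.3%) and 12 of 106 without (11.3%). The intervals of those shares overlapped, and 23 and 15 cells allow only wide ones. In some other control classes Ptch1 was more frequent beside Gli1, with few cells behind it: 3 of 6 thinned upper bulge-like cells with Gli1 against 6 of 74 without, and 2 of 7 thinned bulge-like cells against 10 of 199. Among control fibroblast-like cells it was 2 of 8 against 11 of 98 after thinning, and 7 of 16 (43.8%, 19.8 to 70.1) against 10 of 101 (9.90%, 4.85 to 17.5) before it. Control dermal papilla-like cells went the other way, with Ptch1 in 0 of 1 against 4 of 40 after thinning and 0 of 11 against 11 of 84 before it. The induced library gave 1 of 18 against 6 of 92 thinned upper bulge-like cells, 1 of 10 against 23 of 252 bulge-like cells and 1 of 15 against 7 of 122 fibroblast-like cells. Before thinning these were 6 of 30 against 9 of 85, 5 of 17 against 34 of 251 and 5 of 24 against 14 of 128. Induced dermal papilla-like cells gave 2 of 7 against 5 of 92 after thinning and 2 of 12 against 10 of 129 before it. In the upper bulge, Hhip was detected in 1 of 6 control cells with Gli1 and 15 of 74 without, and in 5 of 18 (27.8%) and 15 of 92 (16.3%) induced cells. No UMI of any of the 6 genes was left in 38.5% of control and 57.0% of induced thinned HG-like cells, and in 78.6% and 78.5% of basal-like cells. In induced HG-like cells thinning left Gli2 in 0 of 15 cells with Gli1 and 2 of 106 without. Before thinning Gli2 was in 14 of 41 and 12 of 80. Shares after thinning thus depend on which of few UMIs were kept, and their difference between libraries was not tested.

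The rest of the pathway was taken from lists of 81 other genes (ligands, ligand release, coreceptors, signal relay, primary cilium and target genes). In HG-like cells 40 were tested, of which 4 were higher and 3 lower by a log2 ratio of at least 1, with a median of −0.04 against 0.02 over all genes. Of all genes, 7.07% were higher and 3.70% lower by that rule. In bulge-like cells 1 of 51 list genes was higher and 0 lower (3.72% and 2.04% of all genes), in basal-like cells 0 and 0 of 54 (2.51% and 1.75%), and in suprabasal-like cells 1 and 0 of 40 (3.20% and 1.58%). In dermal papilla-like cells 5 of 35 were higher and 4 lower (4.00% and 3.41%). At a minimum of 100 UMIs, 0 list genes were higher and 2 lower in HG-like cells and likewise in dermal papilla-like cells, and under 5% mitochondrial UMIs 0 were higher and 2 lower in HG-like cells. The medians of the last 4 were 0.19, −0.02, −0.02 and −0.05, against 0.09, 0.02, 0.02 and −0.05 over all genes.

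The 5 largest list ratios in HG-like cells were those of 3 target genes and 2 genes of the cilium. Fst, which encodes the activin antagonist follistatin, had 1884 UMIs or 1354 CPM in the control and 545 UMIs or 318 CPM in the induced library, a log2 ratio of −2.09 (−2.23 to −1.95). It ranged from −3.58 to −1.96 over the alternatives, the lowest under 5% mitochondrial UMIs. Mycn, a growth-promoting transcription factor, had 3 and 29 UMIs, with a ratio of 2.78 (1.28 to 5.33), and from 1.36 to 3.25 over the alternatives. Foxm1, a transcription factor of dividing cells, had 3 and 19 UMIs and 2.18 (0.60 to 4.76), and it turned to −1.73 when cells with more than 1 Mki67 or Top2a UMI were left out. Ift172 and Ift88, subunits of intraflagellar transport, had 8 and 32 UMIs and 8 and 25 UMIs, with ratios of 1.63 (0.55 to 3.03) and 1.28 (0.15 to 2.70). The ratio of Ift172 reached 4.63 under 5% mitochondrial UMIs.

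In bulge-like cells Ift122, another intraflagellar transport gene, had 11 and 31 UMIs, with a ratio of 1.09 (0.10 to 2.27). The coreceptor Gas1 had 0.57 (0.40 to 0.75) there and Boc 0.59 (0.03 to 1.17) in HG-like cells, both short of the fold. In suprabasal-like cells Bcl2, an inhibitor of cell death, had 9 and 29 UMIs and a ratio of 1.77 (0.70 to 3.08).

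In dermal papilla-like cells the 5 largest were mainly target genes. Spp1, which encodes osteopontin, had 609 and 263 UMIs and a ratio of −2.06 (−2.28 to −1.86). Evc2, a ciliary protein that binds Smo, had 1 and 21 UMIs, with a ratio of 2.99 (0.90 to 8.91), Ccnd2, a cyclin, 2 and 22 UMIs and 2.31 (0.58 to 5.74), and Hsd11b1, a steroid dehydrogenase, 4 and 22 UMIs and 1.47 (0.05 to 3.60). Sox9, a follicle epithelial factor, had 8 and 55 UMIs and 1.85, which turned to −0.63 when the cell with most UMIs was left out. Keratin RNA was present in this class, with Krt14 UMIs in 70.5% and 51.1% of its cells.

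The genes whose pattern across the 14 classes was most like that of an HH gene were found by Pearson correlation of log2(CPM + 1), averaged over both libraries, among 11172 genes. These are descriptions over 14 classes that share libraries and depth. Small classes counted as much as large ones, though some held few UMIs, such as 1 and 2 of Ptch1 in cells gated on Dct and Pmel. The correlation of Ptch1 with Gli1 was 0.72 in the control and 0.41 in the induced library. The HH genes themselves and the marker genes of the classes were left out of this ranking. On the mean of both libraries, Gli1 and Gli2 were closer to each other (0.939) than to any ranked gene. In the control library alone, Gli2 was closer to Hoxc6 (0.954) and Fbln1 (0.947) than to Gli1 (0.923). In the induced library Gli2 had 0.955 with Gli1, against 0.874 with Hoxc6 and 0.924 with Fbln1. Of the ranked genes, Gli1 was closest to Fbln1 (0.91), Il17rd (0.86) and Hoxc6 (0.86). Gli2 was closest to Fbln1 (0.935), Hoxc6 (0.91) and Fzd2 (0.89). Gli3 was closest to Nfat5 (0.87), Tcf7l1 (0.86) and Fzd1 (0.84), Ptch1 to Fgfrl1 (0.83), Zc3h14 (0.79) and Ahsa2 (0.79), Smo to Tacc2 (0.94), Cav1 (0.93) and Tnks1bp1 (0.92), and Hhip to Crispld1 (0.90), 5430421F17Rik (0.87) and Robo2 (0.77). Fbln1 and Hoxc6 thus appeared for both Gli1 and Gli2, and the 3 genes closest to Gli3 were others.

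The 2 most abundant genes of each list over all kept cells, by UMIs in the control and induced library, were Dhh (9 and 34) with Shh (16 and 1) for ligands, Gpc4 (1842 and 1526) with Gpc3 (313 and 449) for ligand release and Gas1 (1923 and 3032) with Boc (808 and 923) for coreceptors. For signal relay they were Csnk1a1 (27516 and 24568) with Prkar1a (7713 and 6756), for the cilium Arl13b (5560 and 4265) with Ift20 (2645 and 2492), and for targets Fst (92003 and 65233) with Sox9 (21118 and 22506).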

How the data were processed

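Back skin cells of 1 control and 1 miR205_induced mouse were measured, 1 library each. The authors used Cell Ranger to count UMIs for each gene in each barcode (the matrix headers name version 3.0.1, and the processing notes build mm10) and deposited raw counts without normalization, which are whole numbers. The feature tables held 35 repeated symbols, and each of the 6 genes occurred once. Counting was of 3′ ends, so a level reflects molecules captured at the 3′ end only.

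Cells with over 200 and under 5000 genes and under 10% mitochondrial UMIs were kept, as the study states. Classes were set by UMIs of markers. The epithelial gate asked for 20 Krt14 plus Krt5 UMIs (50 for basal-like cells). It then asked for 2 Lgr5 UMIs, or 1 with 1 Cdh3, for HG-like, 2 Cd34 with 1 Krt24 for bulge-like, and 2 Aspn with 1 Pthlh for upper bulge-like cells. Below it, 2 papilla marker UMIs gave dermal papilla-like and 20 collagen or Dcn UMIs fibroblast-like cells. HG-like cells also had no Krt24 and under 2 UMIs of Cd34 and of Aspn plus Pthlh. The other classes were gated on Krt75 and Krt6a, Krt79 and Defb6, Scd1 and Mgst1, Krt1 and Krt10, Cd3, Cd74 and H2-Aa, or Dct and Pmel, 1 further class used markers that are not reported here, and cells past a smooth muscle or endothelial gate were left out. Asking 1 more UMI of the gate markers left out 47 of 105 control and 59 of 121 induced HG-like cells. The markers were fixed first, and the UMI numbers were set after the marker UMIs were seen. Cells that met 2 gates (31 and 54) or none (1397 and 1378) were left out. Doublets were not removed. Alternatives changed the mitochondrial limit, the gates, the scaling, the pseudocount, the UMI minimum and the thinning depth, left out the cell with most UMIs of a gene, or left out the highest Scrublet scores.

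UMIs were summed per class and library. Intervals are exact at 95% (Poisson, Clopper-Pearson for shares, conditional binomial for ratios) and cover counting error only. Induced over control ratios used a pseudocount of 0.5 UMIs and genes with at least 20 UMIs, and a log2 ratio of 1 counted as past the fold. Against a class at 0, a floor of 3 counts was used. Shares were compared after thinning to 5000 UMIs, which left out shallower cells, so that 41 of 95 and 99 of 141 dermal papilla-like cells remained. The genes named beside the 6 were the 2 with most UMIs in each list, list genes past the fold in HG, bulge, dermal papilla or epidermal classes (at most 5 per class) and the 3 closest patterns. The genes and lists were chosen with earlier results of these data known. Python 3.11.15, numpy 2.4.6, scipy 1.17.1, pandas 2.3.3 and scanpy 1.11.5 were used, and the scripts were tested on simulated counts.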

Additional observations from a re-analysis of the deposited data

Results flagged for a closer look

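Hhip was also found in cells that belong to no class. In the induced library they held 70 Hhip UMIs in 50 cells, or 4.12 CPM (3.21 to 5.21), against 21 UMIs in 12 cells, or 1.20 CPM, in the control library. These cells take no part in the comparisons between classes, and their level in the induced library was above that in the control. Of the 12 and 50 cells, 91.7% and 90% had a Krt5 UMI, 58.3% and 66% a Cd34 UMI and 33.3% and 42% an Aspn UMI. Their mean Krt14 count was 10.8 and 8.64 UMIs, against 118 and 97.9 in cells of no class without Hhip and 20.9 and 18.9 in upper bulge-like cells. The Hhip level of these cells was not tested.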

How the results depend on the processing

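No paired analysis was possible because there was 1 library per group. Of 366 recomputed induced over control values of the 6 genes, 361 moved by less than their counting interval, as did 260 of 266 class over class values. Larger moves were seen in 63 of 168 shares of cells, which change with thinning depth, in 49 of 624 CPM values, in 5 of 48 co-detection shares and in 9 of 20 list counts and medians. Of 118 values of list genes, 7 moved and 4 reversed. The minimum of 20 UMIs was not asked again of single ratios under an alternative. Under 5% mitochondrial UMIs, which kept 38 control and 32 induced HG-like cells, induced over control became 1.11 for Gli1 and −1.37 for Ptch1 in HG-like cells, and 1.03 for Gli1 and 0.23 for Smo over all cells. HG over bulge became 1.60 for control Gli1 and −0.25, a reversed sign, for induced Ptch1. HG over basal became 5.54 for Gli1 and 1.34 for Ptch1 in the induced and 1.71 for Gli3 in the control library. Smo over all cells became −0.036 with a median-of-ratios size factor, and induced Gli3 HG over basal 1.57 with basal cells of at most 1 Sox9 UMI. The list genes past the fold numbered 2 in HG (both lower), 0 in bulge, 2 in dermal papilla (both lower) and 0 in suprabasal cells at 100 UMIs, and 2 in HG (both lower), 3 in bulge and 1 in basal cells under 5% mitochondrial UMIs. Foxm1 in HG-like cells became −1.73 without cycling cells. Sox9 in dermal papilla-like cells became −0.85 without high Scrublet scores, −0.63 without its top cell and −1.01 without keratin-bearing cells. The alternatives on cycling cells, Sox9 and keratin were chosen after seeing the data. The causes were not tested.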
